A study of Mus musculus with 96 samples.

Results

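The comparison described here set prefrontal cortex of males after maternal immune activation (MIA) and treatment with a CSF1R inhibitor against prefrontal cortex of saline males without inhibitor. It holds 12 of the 96 libraries of the series, all columns labelled for these groups: 6 of MIA males given the inhibitor (MIA PLX) and 6 of saline males on the control treatment (saline control). MIA PLX males carry the labels maternal immune activation and Plexxikon, and the series design names the compound as PLX5622, given by injection. Saline control males carry the labels saline injection and control for the inhibitor. The groups therefore differ in both factors at once, and the comparison asks whether inhibitor-treated MIA tissue resembles tissue that had neither. Strain, genotype, age, the agent of immune activation, the dose and timing of the inhibitor and the litter of an animal are not given in the sources used here. Where litter-mates are among these animals, they are not independent and the p-values are too small; p-values here measure the spread between libraries. Messenger RNA was measured, and values are a signal, namely reads divided by a factor for each library. Of 22709 genes in the table, 18634 reached a signal of 10 in 5 or more of the 12 libraries and were tested.

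CSF1R is the receptor tyrosine kinase through which the ligands CSF1 and IL34 keep microglia, the resident macrophages of the brain, alive. Inhibitors of the receptor deplete microglia, and microglia return once the inhibitor is withdrawn. Repopulated microglia are known to differ for some time from the original cells in part of their resting gene set. In bulk tissue, fewer microglia and less RNA per microglial cell cannot be told apart.

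The 12 libraries held 23.5 to 25.9 M reads, with no identical columns. The labelled sex matched: Ddx3y, a gene on the Y chromosome, had a signal of 1422 to 2189 in all 12. Libraries differed in the share of the summed signal taken by 158 genes of ribosomal proteins and oxidative phosphorylation, the chain of complexes that makes ATP in mitochondria. That share had a gap between 1.07% and 1.18% over the 48 prefrontal libraries, and the 16 libraries above the gap are called high-share libraries here. They were 0 of 6 MIA PLX males and 5 of 6 saline control males. The share was 0.921%, 0.949% and 1.03% (lowest, median, highest) in MIA PLX males, against 0.906%, 1.26% and 1.37% in saline control males. All saline control libraries except number 06 lay above every MIA PLX library. The difference of means was -0.266 percentage points (exact permutation test over 924 regroupings, two-sided p = 0.0152). The split repeated only in part in hippocampus of the same males. There the share averaged 0.980% ± 0.0344 in MIA PLX and 1.22% ± 0.171 in saline control (SD, n = 6 each). Above the widest gap of that tissue lay 4 of 6 saline control and 0 of 6 MIA PLX libraries. Saline control 02 lay below that gap in hippocampus, and saline control 06 lay within the MIA PLX range. Results are given as designed and with a term in the model for the high-share libraries.

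**Figure D1:**
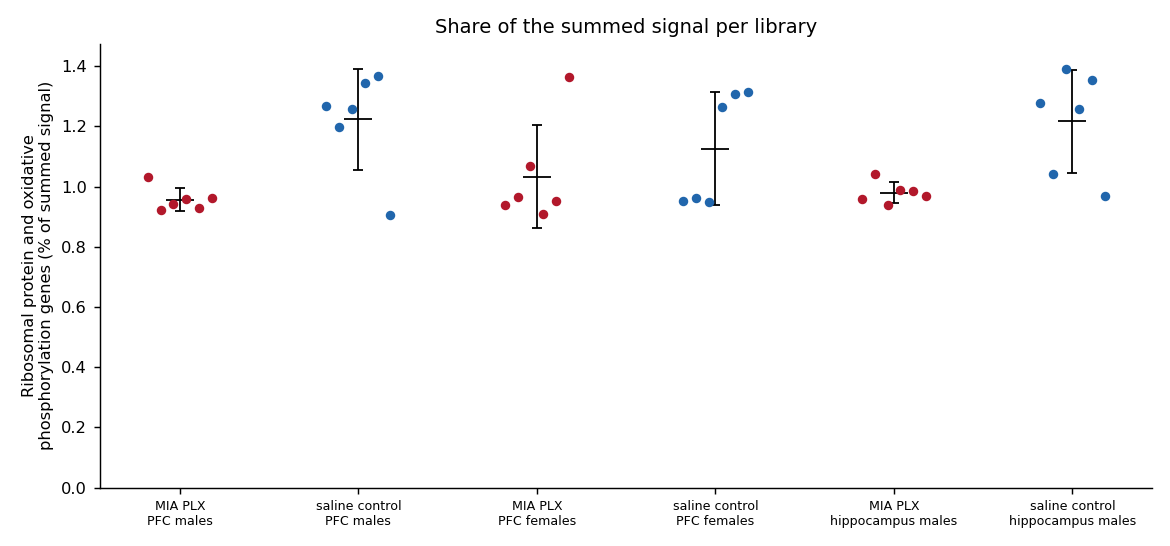
Share of the summed signal in ribosomal protein and oxidative phosphorylation genes (y axis, percent) for each library (points, in order of their number) with mean and SD, MIA PLX left of saline control in each pair. In prefrontal cortex of males 5 of 6 saline control libraries lay above all 6 MIA PLX libraries, and 1 lay at 0.906%.

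Few genes parted the groups at the level of single tests across all genes. Limma with Benjamini-Hochberg adjustment called 8 of 18634 genes at an adjusted p under 0.05 (0.0429%). Of these 1 rose in MIA PLX males (0.00537%) and 7 fell (0.0376%). A much larger number had an unadjusted p under 0.05, namely 3375 higher (18.1%) and 2675 lower (14.4%), and 1519 genes had an adjusted p of 0.063 or less. In 264 genes (1.42%) every MIA PLX library lay above every saline control library, and in 134 (0.719%) every one lay below. Differences are on the log2(signal + 1) scale, which understates changes of low genes. The median over all genes was -0.00095. The 95% interval of the difference lay within 1.5-fold in either direction for 13083 genes (70.2%). The count rested on single libraries: it was 5153 without saline control 06, 2587 without saline control 02, and 0 without MIA PLX 02, 03 or 04 or saline control 05. A fit of the 12 libraries alone called 2370 genes (12.7%), against the 8 called when all 48 prefrontal libraries shared one estimate of the spread. With the term for the high-share libraries 1 gene was called (0.00537%), with 392 genes higher (2.1%) and 359 lower (1.93%) at an unadjusted p under 0.05.

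Of the 7 genes that fell, 4 belong to the list of resting microglial genes, which was written with earlier results of these data known. None of the 8 genes was called with the term; the gene called there was Lyz2. Upk1b, which encodes a tetraspanin of the uroplakin family and is found in microglia in the brain, had a signal of 3.14, 10.3 and 16.1 (lowest, median, highest) in MIA PLX males, against 23.5, 29.2 and 34.2 in saline control males. Every MIA PLX library lay below every saline control library. The log2 difference was -1.53 ± 0.28 (SE, adjusted p = 0.0211), and it was -1.47 ± 0.32 with the term (adjusted p = 0.228). Crybb1, a crystallin expressed by microglia, ran at 38.7, 49.8 and 56.0 in MIA PLX males and 63.4, 107 and 122 in saline control males, again without overlap. Its log2 difference was -1.02 ± 0.19 (adjusted p = 0.0211) and -0.71 with the term (adjusted p = 0.826). The lowest saline control library for Crybb1 was number 06, the one whose share was low.

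Slc2a5, which encodes the fructose transporter GLUT5 of microglia, had a signal of 62.7, 88.7 and 107 in MIA PLX males and 121, 136 and 153 in saline control males. The groups did not overlap, and the log2 difference was -0.63 ± 0.12 (adjusted p = 0.0282; -0.49 with the term, adjusted p = 0.826). Fcrls, an Fc receptor-like scavenger receptor used to mark microglia, had 370, 394 and 419 in MIA PLX males and 482, 557 and 614 in saline control males. Here too each MIA PLX library was below each saline control library, with a log2 difference of -0.48 ± 0.10 (adjusted p = 0.0394; -0.32 with the term, adjusted p = 1). Of the 5 saline control libraries that stand apart, number 02 lay closest to the gap at a share of 1.20%, and its hippocampal library did not stand apart. Without these 5 libraries, number 06 remained as the only saline control. Against it the log2 differences were -1.65 for Upk1b, -0.41 for Crybb1, -0.81 for Slc2a5 and -0.35 for Fcrls, and none was called; that fit assumes that the lone library varies like the other groups.

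The promoters of 3 of these 4 genes are in the RefSeq table used (GRCm38.p6; the deposited data were aligned to GRCm39), and they are shown because the genes fell together. Each runs 5′ to 3′ from 250 bases before to 50 after the start. Capitals mark GAGGAA, letters found in sites of PU.1, a transcription factor of myeloid cells, searched on both strands. Other forms of the site were not searched. The windows are chr5:112255570-112255869 (+) for Crybb1, chr4:150119094-150119393 (+) for Slc2a5 and chr3:87263475-87263774 (-) for Fcrls.
Crybb1: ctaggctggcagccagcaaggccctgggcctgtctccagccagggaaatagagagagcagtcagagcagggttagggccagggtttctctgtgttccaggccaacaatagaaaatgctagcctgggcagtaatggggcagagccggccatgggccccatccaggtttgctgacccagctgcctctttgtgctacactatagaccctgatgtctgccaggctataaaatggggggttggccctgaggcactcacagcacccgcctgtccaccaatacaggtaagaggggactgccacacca
Slc2a5: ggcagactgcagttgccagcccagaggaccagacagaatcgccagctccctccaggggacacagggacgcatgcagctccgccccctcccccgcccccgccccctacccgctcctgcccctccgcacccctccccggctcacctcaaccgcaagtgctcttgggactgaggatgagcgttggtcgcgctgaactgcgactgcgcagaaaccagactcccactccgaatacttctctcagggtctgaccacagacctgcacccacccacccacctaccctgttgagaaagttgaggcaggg
Fcrls: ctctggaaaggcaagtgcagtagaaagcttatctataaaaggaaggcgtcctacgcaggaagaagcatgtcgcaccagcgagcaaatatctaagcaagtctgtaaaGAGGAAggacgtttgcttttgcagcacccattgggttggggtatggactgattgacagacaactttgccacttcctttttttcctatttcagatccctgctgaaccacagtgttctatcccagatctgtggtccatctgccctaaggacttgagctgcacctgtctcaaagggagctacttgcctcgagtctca
The Fcrls window held 1 match, and the others held 0; 28.3% of the 32851 promoters in the table hold at least 1. A match describes letters only, and a window without one says nothing of the factor.

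The other called genes were Acaa2, Gmfg-ps and 1 predicted gene, which fell, and Pdk3, which rose. Acaa2, the thiolase that ends the mitochondrial oxidation of fatty acids, had 340, 351 and 393 in MIA PLX males and 436, 490 and 554 in saline control males. The groups did not overlap (log2 difference -0.45 ± 0.09, adjusted p = 0.0482; -0.23 with the term). Gmfg-ps is a pseudogene of Gmfg, so its reads may be split with the parent gene and its value is uncertain. It had 2.02, 4.70 and 10.1 in MIA PLX males and 9.65, 13.6 and 15.6 in saline control males, which overlapped, with a log2 difference of -1.24 ± 0.25 (adjusted p = 0.0394; -1.11 with the term). Pdk3, a kinase that holds pyruvate dehydrogenase inactive, had a signal of 702, 736 and 802 in MIA PLX males and 558, 592 and 664 in saline control males, without overlap (log2 difference 0.31 ± 0.06, adjusted p = 0.0211; 0.21 with the term). Over 30 or 31 alternatives of the fit the named called genes passed the threshold in 13 (Acaa2) to 19 (Pdk3 and Crybb1), and their adjusted p ran from 3.69e-05 to 1.

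**Figure D2:**
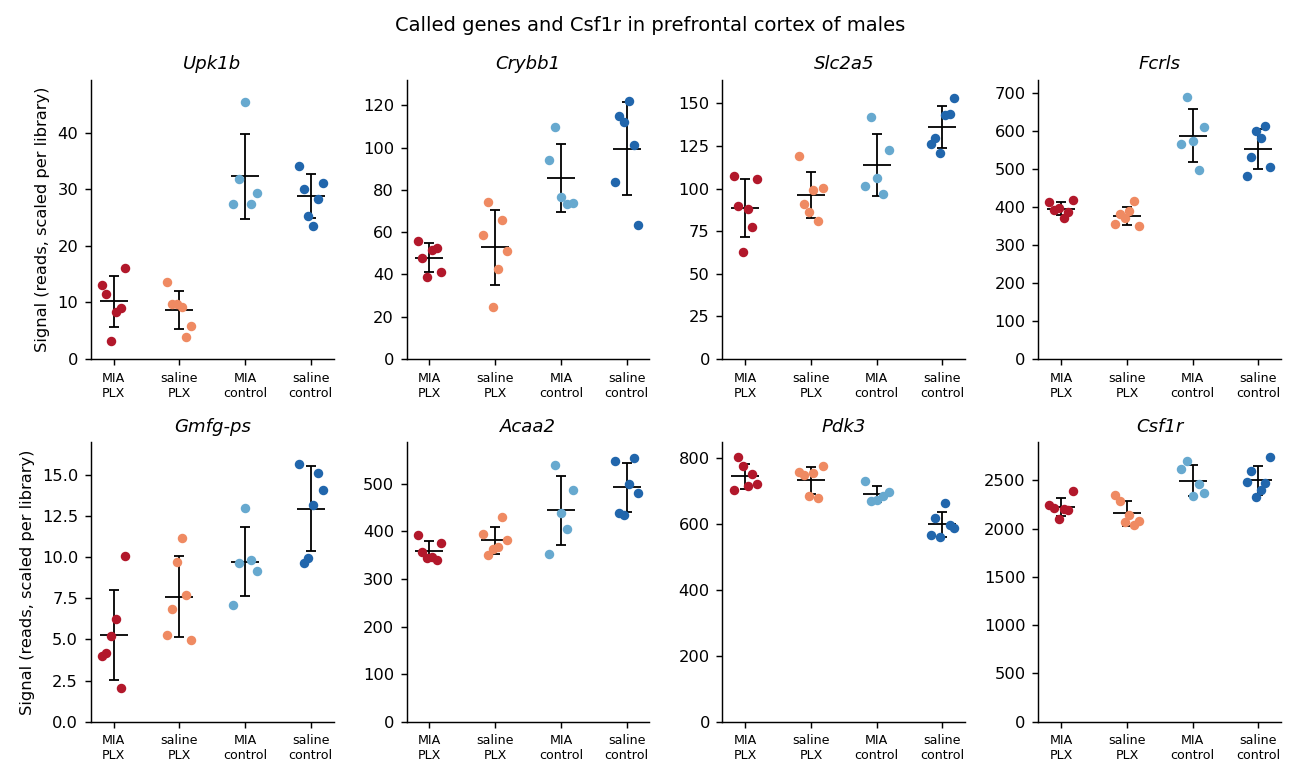
Signal (y axis, reads scaled per library) of the 7 named called genes and Csf1r in the 4 groups of males in prefrontal cortex, with points for libraries and bars for mean and SD. MIA PLX libraries lay below the saline control libraries for Upk1b (3.14 to 16.1 against 23.5 to 34.2) and above them for Pdk3 (702 to 802 against 558 to 664).

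Csf1r itself, the target of the inhibitor, had 2100, 2208 and 2392 in MIA PLX males and 2323, 2476 and 2744 in saline control males. The groups overlapped, with 1 MIA PLX library inside the saline range. The log2 difference was -0.17 ± 0.06, with a 95% interval of -0.30 to -0.04 (exact permutation test of this gene alone, two-sided p = 0.00433; adjusted p over all genes = 0.0766, not called). With the term the difference was -0.15. Against the lone saline control library that does not stand apart it was -0.30 (exact p = 0.143, the smallest p that design allows).

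Other membrane proteins of resting microglia had smaller differences than Upk1b as designed and were not called. P2ry12, the purinergic receptor that guides microglial processes, averaged 810 ± 115 in MIA PLX and 981 ± 186 in saline control males (SD, n = 6 each; log2 difference -0.27, interval -0.47 to -0.07). Tmem119, a membrane protein that marks microglia, averaged 517 ± 49.9 in MIA PLX and 638 ± 103 in saline control males (-0.29; -0.09 with the term). Gpr34, a receptor for lysophosphatidylserine, gave -0.30 and Siglech, a sialic acid binding lectin, -0.16. Cx3cr1, the fractalkine receptor, gave -0.12 with an interval of -0.30 to 0.06. The interval for Cx3cr1 thus includes 0, as does that for Siglech (-0.34 to 0.02), while those for P2ry12 and Tmem119 (-0.51 to -0.08) do not. Against saline control 06 alone, the differences were -0.65 for P2ry12, -0.63 for Gpr34, -0.43 for Cx3cr1, -0.24 for Siglech and -0.02 for Tmem119. None was called in that fit; the first 3 were larger there than as designed, and that of Tmem119 was smaller.

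Myo18b, an unconventional myosin in none of the lists, had 50.5, 58.0 and 66.6 in MIA PLX males and 74.7, 83.8 and 90.8 in saline control males. These did not overlap, and the log2 difference was -0.51 ± 0.12 (adjusted p = 0.0621; -0.60 with the term).

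Over the 40 resting microglial genes, 0 were called higher and 4 lower, against 0.00537% and 0.0376% of all genes. At an unadjusted p under 0.05 the counts were 4 and 12, against 18.1% and 14.4% of all genes. The list was written with earlier results of these data known, so its counts are descriptive and no independent support. The median log2 difference of the list was -0.15, against -0.00095 over all genes tested, and -0.07 with the term. With the term 0 of the 4 calls remained, and 6 members were higher and 7 lower at an unadjusted p under 0.05, against 2.1% and 1.93% of all genes. Members differed in direction. Ptprc, the leukocyte phosphatase CD45, had a log2 difference of 0.46, while Selplg, the ligand of P-selectin, had -0.41. C1qa, a chain of the complement component C1q that microglia make, averaged 949 ± 107 in MIA PLX and 895 ± 178 in saline control males (0.10; 0.40 with the term). The summed signal of the list ran from 41750 to 45350 in MIA PLX males and from 39450 to 47230 in saline control males, so the total did not part the groups. No member of the list was at 0.

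Several myeloid genes had higher means in MIA PLX males and were not called as designed. They come from the fixed panel and from the genes of smallest p in the lists, and they form no list of their own. Lyz2, the lysozyme of macrophages, had 208, 251 and 354 in MIA PLX males and 123, 157 and 204 in saline control males. Each MIA PLX library lay above each saline control library (log2 difference 0.73 ± 0.17, adjusted p = 0.0621). Lyz2 was the gene called with the term, at 1.06 ± 0.16 (adjusted p = 0.000627; 0.000321 to 1 over all 31 alternatives, of which 12 called it). Ly9, a SLAM family receptor of leukocytes, had 19.0, 20.7 and 28.2 in MIA PLX males and 4.70, 7.28 and 14.2 in saline control males. The groups did not overlap, and the log2 difference was 1.38 ± 0.33 (adjusted p = 0.0621) and 1.51 with the term.

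Itgax, the integrin CD11c, had 7.06, 15.3 and 21.7 in MIA PLX males and 3.61, 5.03 and 11.1 in saline control males, with 1 MIA PLX library inside the saline range. Its log2 difference was 1.22 ± 0.32, and 1.06 with the term. C3ar1, the receptor of the complement fragment C3a, had 56.0, 67.7 and 75.0 against 38.9, 43.9 and 71.5 in MIA PLX and saline control males; saline control 06 was the high library. Without the high-share libraries its difference turned to -0.12, from 0.47 as designed. Clec7a, the beta-glucan receptor dectin-1, averaged 12.7 ± 4.79 in MIA PLX and 7.12 ± 3.59 in saline control males (0.79 ± 0.34, adjusted p = 0.108). Cybb, the catalytic subunit of the phagocyte NADPH oxidase, averaged 36.7 ± 13.8 and 14.8 ± 8.73 in MIA PLX and saline control males (1.31 ± 0.31, adjusted p = 0.0621). Saline control 06 was high for Cybb too, and against it alone the difference was 0.13. Against that library Ly9 gave 0.94, Lyz2 0.71, Itgax 0.41 and Clec7a 0.11. Cd52, a small surface glycoprotein of leukocytes and also in the panel, gave 0.43 as designed (adjusted p = 0.211) and 1.25 against that library.

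Hcar2, a receptor for hydroxybutyrate and niacin on myeloid cells, did not reach the minimum signal and was not tested. Its signal was 1.05, 8.54 and 16.1 in MIA PLX males, against 0, 0.470 and 1.01 in saline control males. It had 51 reads in the 6 MIA PLX libraries and 3 in the 6 saline control libraries, a ratio per read sequenced of 17.2 (95% interval 5.57 to 86.2, counting error only). The lowest MIA PLX library and the highest saline control library each had 1 read, so the groups tie in reads, and their signals of 1.05 and 1.01 differ by the library factor alone. In the fit with no minimum Hcar2 had an adjusted p of 0.00799.

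**Figure D3:**
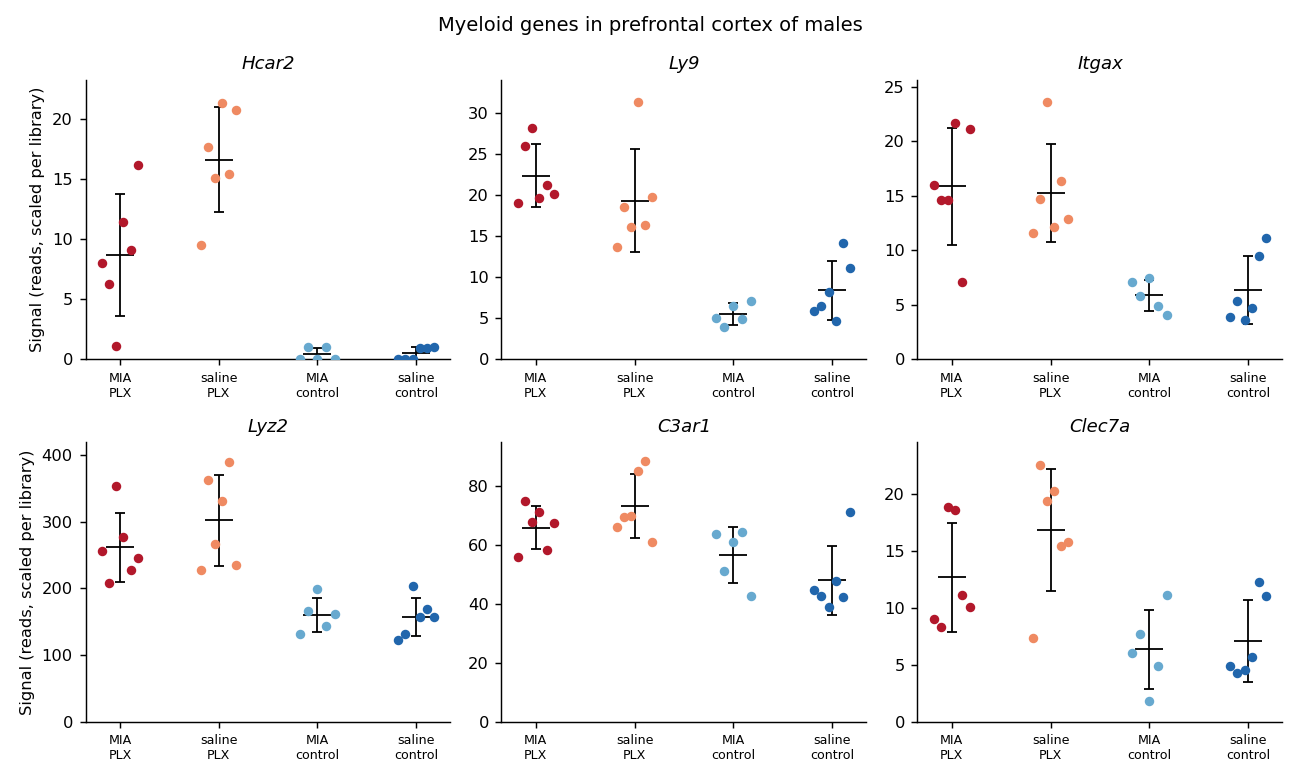
Signal (y axis, reads scaled per library) of 6 myeloid genes in the 4 groups of males in prefrontal cortex, with points for libraries and bars for mean and SD. For Ly9 the MIA PLX libraries (19.0 to 28.2) lay above the saline control libraries (4.70 to 14.2); for Hcar2 (1.05 to 16.1 against 0 to 1.01) the nearest libraries of both groups had 1 read each.

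In the list of activated microglia, 0 of 29 tested genes were called, and at an unadjusted p under 0.05 the counts were 5 higher and 5 lower, near the 18.1% higher and 14.4% lower of all genes. With the term the counts were 8 and 1, against 2.1% higher and 1.93% lower of all genes in that fit. Its median was -0.09, and 0.12 with the term, so the sign depends on how the high-share libraries are treated. Among its lower members Ccl6, a chemokine of myeloid cells, averaged 18.02 ± 7.25 in MIA PLX and 31.8 ± 13.1 in saline control males (-0.77 ± 0.21, adjusted p = 0.0621). The complement list had 6 higher and 0 lower of 20 at an unadjusted p under 0.05, against 18.1% and 14.4% of all genes, with a median of 0.06. With the term its counts were 7 and 0, against 2.1% and 1.93% of all genes, with a median of 0.12. Of 30 cytokine and pattern receptor genes and their signalling partners, 8 were higher and 3 lower at that level as designed, against 18.1% and 14.4%. With the term 6 were higher and 0 lower, against 2.1% and 1.93%. Tlr2, a receptor of bacterial lipoproteins, averaged 30.1 ± 7.36 in MIA PLX and 17.2 ± 4.05 in saline control males (0.77 ± 0.20, 0.87 with the term). Tlr13, a sensor of bacterial ribosomal RNA in mice, averaged 87.9 ± 11.5 and 60.8 ± 7.40 in MIA PLX and saline control males (0.52 ± 0.13).

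Macrophages at the borders of the brain form another population that the tissue can hold. Of 15 tested border macrophage genes 0 were called, and 3 were higher and 3 lower at an unadjusted p under 0.05 (18.1% and 14.4% of all genes). In direction 11 lay above 0 and 4 below. Their median was 0.09, with 0.22 in the fit with the term and -0.12 without the high-share libraries. The summed signal of the list ran from 2477 to 2754 in MIA PLX males and 2101 to 3071 in saline control males. Cd163, the haemoglobin scavenger receptor, had 65.6, 74.8 and 96.2 in MIA PLX males and 82.2, 108 and 148 in saline control males, which overlapped (-0.50 ± 0.19; -0.80 with the term). Cd209f, a C-type lectin, averaged 4.92 ± 2.01 and 13.8 ± 7.09 in MIA PLX and saline control males (-1.28 ± 0.33). Mrc1, the mannose receptor, was among the 11 members above 0, at 223 ± 31.8 in MIA PLX and 173 ± 64.3 in saline control males (0.43 ± 0.17). Mrc1 turned to -0.33 without the high-share libraries.

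**Figure D4:**
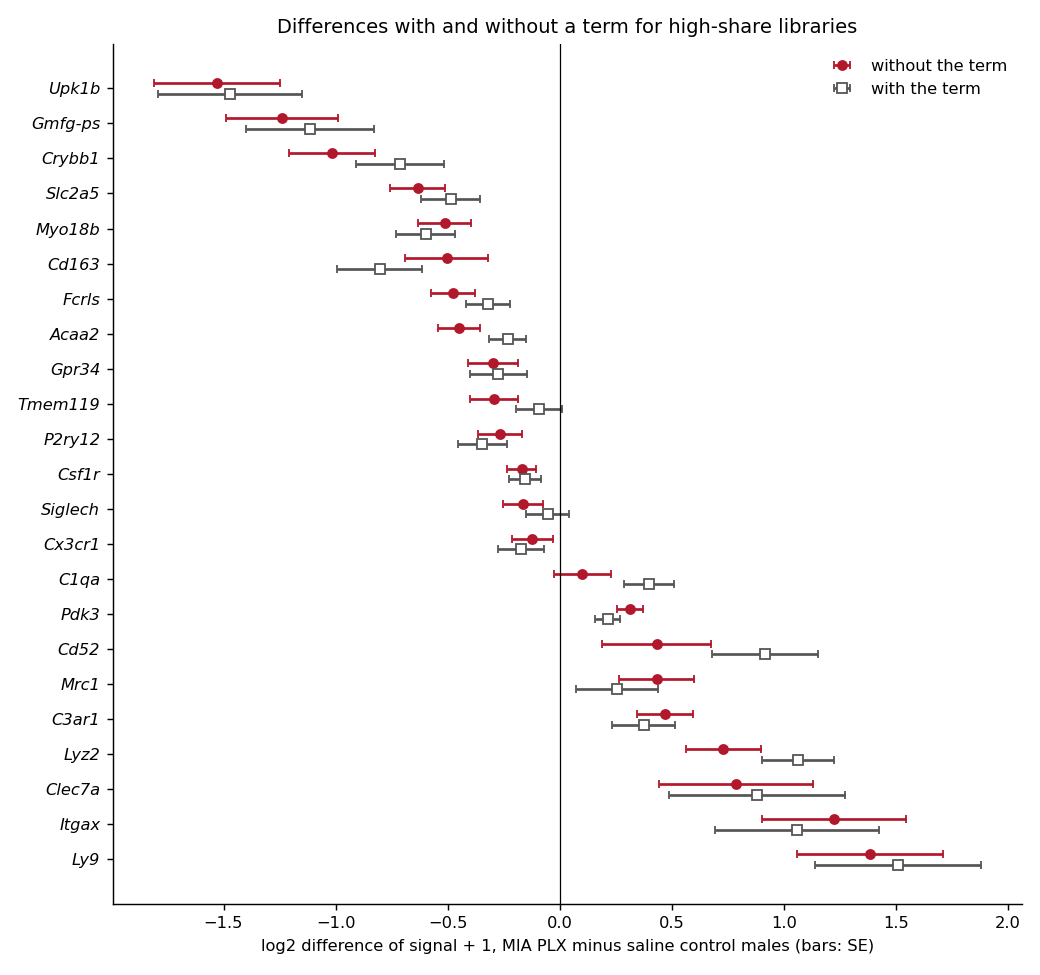
Log2 difference (x axis, MIA PLX minus saline control, bars SE) of 23 named genes, as designed (circles) and with a term for the high-share libraries (squares). Upk1b moved from -1.53 to -1.47 and Lyz2 from 0.73 to 1.06 when the term was added.

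Genes of protein synthesis and respiration had lower values as 2 whole lists. Of 82 ribosomal protein genes 79 had a difference below 0 and 54 had an unadjusted p under 0.05, all lower (14.4% of all genes were lower at that level), with a median of -0.35. These genes encode the protein part of the ribosome. Of 76 oxidative phosphorylation genes 74 lay below 0 and 60 had an unadjusted p under 0.05, all lower, with a median of -0.31. No member of either list was called, though the fit of the 12 libraries alone called 39 and 36 of them lower. That fit called 811 of all 18634 genes lower. Rpl26, a protein of the large ribosomal subunit, averaged 462 ± 71.4 in MIA PLX and 670 ± 117 in saline control males (-0.53 ± 0.13). Ndufs5, a subunit of complex I, averaged 163 ± 15.3 and 231 ± 35.01 in MIA PLX and saline control males (-0.49 ± 0.13). With the term the medians were -0.00385 for the ribosomal and 0.06 for the respiratory list. These lists define the high-share libraries, so that change follows in part from the choice of the term.

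Receptor genes of synapses had values in the opposite direction. Of 29 genes of glutamate receptors and their scaffolds 27 lay above 0 and 16 were higher at an unadjusted p under 0.05, against 18.1% of all genes, with a median of 0.21. Of 18 genes of GABA receptors and their partners 16 lay above 0 and 9 were higher at that level, again against 18.1%, with a median of 0.13. Gabrb2, the beta 2 subunit of the GABA-A receptor, had 5086, 5603 and 5915 in MIA PLX males and 2027, 2156 and 4870 in saline control males. The groups did not overlap (1.02 ± 0.31, adjusted p = 0.0621), and the difference with the term was 0.03. Saline control males held 2 levels, with 4870 in number 02 and 4538 in number 06, near the MIA PLX libraries, and 2027 to 2158 in the others. Similar levels occurred within the other groups of males. MIA control 02 and 05 had 5139 and 4971 against 2137 to 2192 in the others, and saline PLX 05 had 2172 against 4856 to 5794. Shank2, a scaffold of glutamate synapses, averaged 6826 ± 639 and 5127 ± 980 in MIA PLX and saline control males (0.43 ± 0.13; 0.07 with the term). With the term the list medians were 0.005 for glutamate and 0.0074 for GABA. At an unadjusted p under 0.05, 0 members of either list were then higher, near the 2.1% of all genes in that fit. Neither list entered the definition of the high-share libraries, but 5 of 6 saline control and 0 of 6 MIA PLX males were high-share. The term and the groups thus largely coincide, and their parts in these differences cannot be told apart.

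Markers of other cell types gave no called gene. The labelled tissue showed its neurons, with a summed signal of 25 excitatory cortical genes of 179500 to 200900 in MIA PLX males and 169400 to 190300 in saline control males. The medians were -0.08 over 22 astrocyte, -0.04 over 23 oligodendrocyte, 0.12 over 20 oligodendrocyte precursor, -0.07 over 21 endothelial and 0.04 over 21 mural and fibroblast genes. Over 22 genes of striatal neurons the median was -0.30 with 0 genes at an unadjusted p under 0.05, against 18.1% higher and 14.4% lower of all genes. Their summed signal ran from 22670 to 55270 in MIA PLX males and from 21280 to 63370 in saline control males. That spread within both groups was measured, and its part in other results was not tested. Of 36 interferon response genes 33 were tested, with a median of 0.0043. At an unadjusted p under 0.05, 3 were higher and 0 lower, both below the 18.1% and 14.4% of all genes. Lymphoid and neutrophil markers were sparse, with 8 of 31 symbols tested, 3 above 0 and 5 below (median -0.24). Ly9, described above, was the highest at 1.38, while Lck and Trbc2 of T cells differed by -0.36 and -0.38. Hcar2 stood in this list too and was not tested. Astrocytic Aqp4, the water channel of end-feet, gave 0.35, and 0.04 with the term.

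Lists of stress and metabolism differed in sign; over all genes 18.1% were higher and 14.4% lower at an unadjusted p under 0.05. In the list of endoplasmic reticulum stress 21 of 30 genes lay above 0 (median 0.07), with 5 higher and 1 lower at that level. Sel1l, of the degradation machinery, had the smallest p of the list (6589 ± 407 in MIA PLX and 5172 ± 526 in saline control males; 0.35 ± 0.08, adjusted p = 0.0621). With the term the median of the list was 0.14, with 11 higher and 0 lower at that level, against 2.1% and 1.93% of all genes in that fit. Of 25 glycolysis genes 10 were lower and 2 higher at an unadjusted p under 0.05, Pdk3 among the higher, with a median of -0.11. The list of glucocorticoid response had a median of -0.19 over 23 genes, with 2 higher and 2 lower at that level. Of the genes of cholesterol synthesis 3 were higher and 6 lower of 29 at that level.

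**Figure D5:**
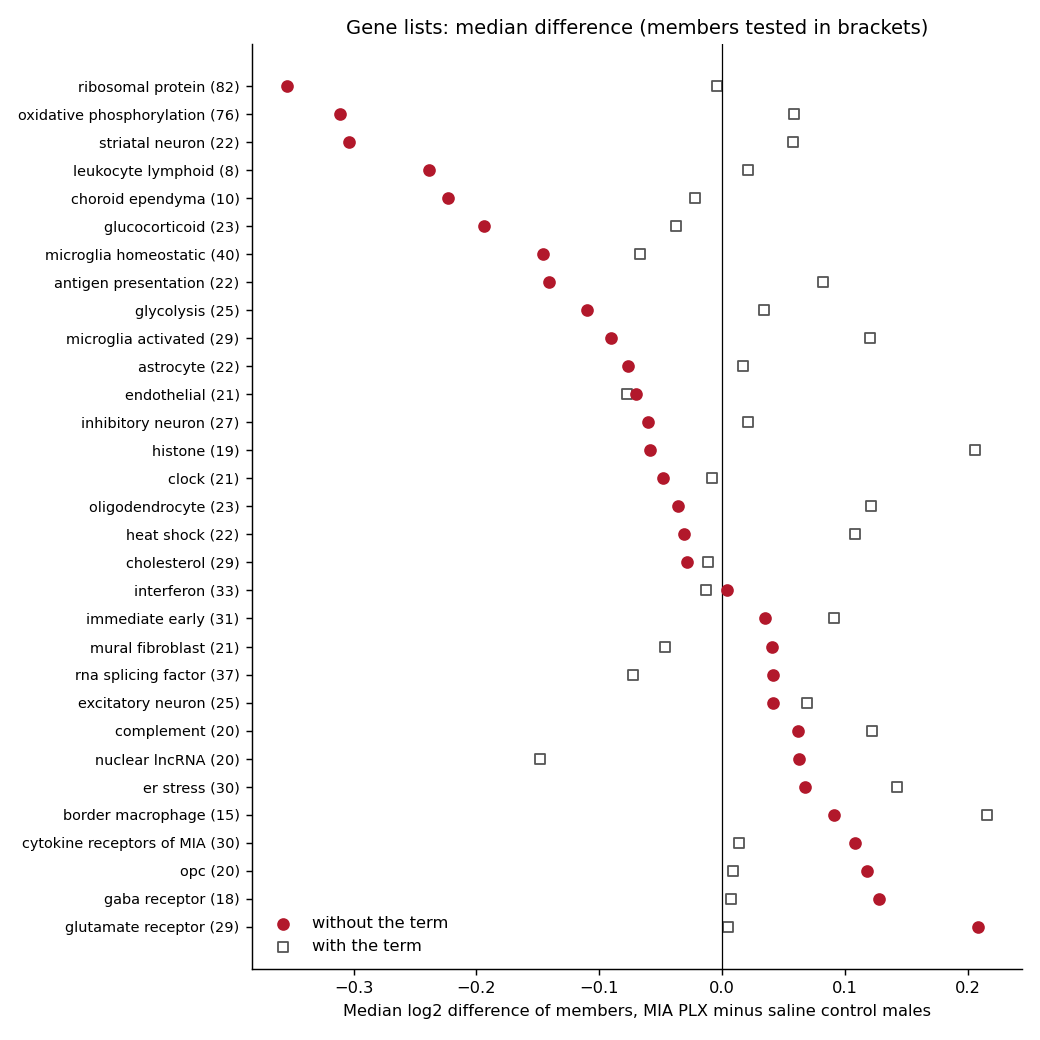
Median log2 difference (x axis, MIA PLX minus saline control) of the tested members of each of 31 gene lists, as designed (circles) and with the term for the high-share libraries (squares). The ribosomal list moved from -0.35 to -0.00385 and the glutamate receptor list from 0.21 to 0.005 with the term, and the list of resting microglia from -0.15 to -0.07.

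The 2 other groups of males place the difference along each factor; these steps share the libraries of this comparison, so they are given side by side as values. MIA control against saline control called 0 genes (0%; 466 at an unadjusted p under 0.05). MIA PLX against MIA control called 3 (0.0161%), with Upk1b (-1.67) and Fcrls (-0.56) lower and Ly9 (1.86) higher. Saline PLX against saline control called 76 (0.408%), and MIA PLX against saline PLX called 0 (0%; 514 at an unadjusted p under 0.05). Upk1b averaged 10.2 ± 4.46 in MIA PLX, 8.67 ± 3.41 in saline PLX, 32.3 ± 7.54 in MIA control and 28.8 ± 3.92 in saline control males. Fcrls followed the same order of treatments at 396 ± 17.7, 377 ± 23.9, 588 ± 69.9 and 553 ± 53.7. For both genes the inhibitor groups lay low whatever the prenatal treatment. Hcar2 averaged 8.65 ± 5.05 in MIA PLX, 16.6 ± 4.35 in saline PLX, 0.389 ± 0.533 in MIA control and 0.482 ± 0.529 in saline control males. Pdk3 differed in its pattern, with 744 ± 38.6 in MIA PLX, 732 ± 41.0 in saline PLX, 689 ± 24.8 in MIA control and 598 ± 38.7 in saline control males (n = 6, except 5 MIA control males).

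The same contrast in females called 0 genes in prefrontal cortex (0%; 1324 at an unadjusted p under 0.05). A test of the difference between males and females also called 0 (0%; 934 at an unadjusted p under 0.05). Upk1b averaged 11.9 ± 5.82 in MIA PLX and 32.0 ± 6.54 in saline control females (-1.43, adjusted p = 0.0621), and the difference between the sexes was -0.10. Fcrls averaged 477 ± 61.3 and 662 ± 118 in MIA PLX and saline control females (-0.46). Small p-values of the difference between the sexes belonged to Pwwp2b, a PWWP domain protein (-0.36 in males, 0.34 in females), and Ralgds, an exchange factor of Ral (-0.13 in males, 0.16 in females). Cybb followed at 1.31 in males and -0.37 in females, and none of the 3 was called (adjusted p = 0.720 each). By the share of ribosomal and respiratory genes 1 of 6 MIA PLX and 3 of 6 saline control females stood apart.

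In hippocampus of males the contrast called 4 genes, all lower in MIA PLX males (0.0215%). The named ones were Myo18b (44.0 ± 7.5 in MIA PLX and 79.7 ± 9.66 in saline control; -0.85, adjusted p = 0.000286), Upk1b (18.6 ± 3.32 and 43.3 ± 4.42; -1.19, adjusted p = 0.0016) and Cd163 (21.5 ± 5.70 and 71.4 ± 30.1; -1.62, adjusted p = 0.0185). A test of the difference between prefrontal cortex and hippocampus called 0 genes (0%, with 253 at an unadjusted p under 0.05). That fit treated the libraries of both tissues as independent. With the animal label as a block the test also called 0 genes, with 763 at an unadjusted p under 0.05. In the fit without the block Cd163 was among the genes with the smallest p of the tissue difference. It gave -0.50 in prefrontal cortex and -1.62 in hippocampus (difference 1.11 ± 0.37, unadjusted p = 0.00315, adjusted p = 1). Fcrls gave -0.48 in prefrontal cortex and -0.49 in hippocampus. Hcar2 averaged 7.46 ± 4.35 in MIA PLX and 1.46 ± 1.69 in saline control hippocampus. The libraries of both tissues carry the same animal labels, so hippocampus is no independent set of animals.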

How the data were processed

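The deposited values are a signal per gene and library: counts that the authors divided by a library factor. Per the submitters' processing notes, reads were trimmed with Trimmomatic and aligned with STAR 2.6.1d to GRCm39; the sources used here name no counting tool. Per the labels' protocols, libraries were stranded mRNA preparations. Every value was a whole multiple of 1 step per library (tolerance 0.01, 100% of values), which gave the reads back.

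The main fit was limma 3.58.1 (R 4.3.3) on log2(signal + 1), with the 8 groups of the 48 prefrontal libraries in 1 model, a variance trend and Benjamini-Hochberg adjustment over 18634 genes. A pseudocount shrinks differences of low genes. edgeR 4.0.16 and DESeq2 1.42.0 on the recovered reads were alternatives. The main limma fit and the edgeR fit were tested on simulated data; the other fits were not. Csf1r and the ribosomal and respiratory share were tested by exact permutation.

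Named genes were, for the comparison as designed, the 12 smallest p-values among called genes in each direction; with the term, the 8 smallest, or 5 where none was called; a fixed panel of microglial genes; up to 4 genes of each of 31 lists; and 3 in each direction of other comparisons. Predicted genes were counted and not named. Ptprc, Selplg and Ddx3y were added after their values were seen. Members and lists were chosen with earlier results of these data known. Tests of the difference between tissues used all 16 groups without a block, and the animal label as a block was an alternative.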

Additional observations from a re-analysis of the deposited data

Results flagged for a closer look

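In groups of 6 libraries, a library was singled out when its gap to the next one, over the range of the group, passed Dixon's limit of 0.625; chance gives about 1 in 20 groups, and 5 of 78 groups had one. Saline control 06 stood out in 3 measures: its ribosomal and respiratory share of 0.906% was far below the other saline control males, and its signals of 71.5 for C3ar1 and 31.2 for Cybb were far above them. MIA PLX 06 had 19.1 for P2ry2, a purinergic receptor, far above the other MIA PLX males. Saline control 05 had 27.4 for Cd209f, far above the other saline control males.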

How the results depend on the processing

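The count of 8 genes depended on how the spread was estimated and on the high-share libraries. It was 4 with a minimum of 50, 2370 with the 12 libraries alone, 7927 with array weights, 1915 by DESeq2 and, added after seeing the data, 1970 by edgeR on the 12 libraries alone. It was 1 with the term, with the share as a covariate, without the high-share libraries and by edgeR with the term, and also 1 in 2 fits added after seeing the data, the term from hippocampal labels and array weights with the term. Leaving out single libraries gave 0 to 5153 calls. The cause of these shifts was not tested. The replicate block gave 1542 calls, and 0 with the term; the numbers do not pair the samples, since same-numbered libraries correlated between -0.173 and 0.194 and none correlated best with its own number. Without the high-share libraries, the sex difference had 1 call. With the term, saline PLX against saline control had 7 calls and the female contrast 7. Csf1r was -0.30 without the high-share libraries (exact p = 0.143), and -0.19 to -0.14 with single libraries left out. The share difference was -0.266 in exact sign flips of the replicate block (p = 0.0625), and -0.33 to -0.238 with single libraries left out. Of 765 pairs of a named gene and an alternative, 757 kept their direction. The block with the term turned P2ry2 (0.0757), Siglech (0.12), Clec7a (-0.12), C3ar1 (-0.0807) and Mrc1 (-0.48); leaving out the high-share libraries turned C3ar1 (-0.12) and Mrc1 (-0.33); array weights turned C1qa (-0.0354). Depth of 23.5 to 25.9 M reads leaves genes such as Hcar2 at 0 to 16 reads a library.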
